A study of Homo sapiens with 4 samples.

Results

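Polyamine metabolism was followed in LX-2 cells through 10 genes: the synthesis enzymes ODC1, AMD1, SRM and SMS, the breakdown enzymes SAT1, SMOX and PAOX, the antizymes OAZ1 and OAZ2 and the antizyme inhibitor AZIN1. They were taken by symbol from the 63241 genes of the count matrix, and all 10 were found. The pathway was chosen by its SAT1 counts, which were much higher with BDS4 than with TGF-β alone, so the values of that comparison are given here as a description. A level of 1 count per 1000000 (CPM) in some library was reached by 9 of the 10 genes, as by 16099 genes in all, and PAOX stayed below it.

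LX-2 is an immortalised human hepatic stellate cell line, a culture model of the cells that deposit matrix in the scarring liver, and TGF-β is the cytokine most used to activate them. Cells were starved for 24 h in medium with 0.5% serum and then treated for 24 h. The 4 groups were an untreated control, TGF-β at 20 ng/mL with DMSO, TGF-β at the same dose with BDS4 at 5 µM, and TGF-β at the same dose with RVX-208 at 5 µM. Each group was 1 library, so no spread between cultures could be measured and no test was made. The series concerns covalent inhibitors of the first bromodomain of BET proteins, which are readers of acetylated histones. RVX-208 (apabetalone) is a BET inhibitor with a preference for the second bromodomain, and BDS4 is known here by its code only. No vehicle is named for the control.

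Putrescine, spermidine and spermine are small positively charged molecules that bind nucleic acids and are needed for cell growth. ODC1 makes putrescine from ornithine, AMD1 supplies the aminopropyl group from S-adenosylmethionine, and SRM and SMS add that group to make spermidine and then spermine. SAT1 acetylates spermidine and spermine for export or oxidation, while antizymes bind the ODC1 protein, send it to the proteasome and slow polyamine uptake. Much of this control acts on translation and protein stability, which RNA levels do not measure.

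The start regions of 4 members are printed. They belong to the 3 genes that differed most with BDS4 (SAT1, ODC1, AMD1) and to 1 of the 2 that were lower (SRM). The other lower gene, SMS, also had a window, without CACGTG, that is not printed. Also not printed is an AMD1 window farther upstream (chr6:110814367-110814666), which held 3 GGGCGG matches and 1 CCAAT match. They are RefSeq sequence on GRCh38.p14, cut from windows of 300 bases around annotated starts, which were available for 7 of the 10 members. Matches to the other motifs searched, such as GGGCGG in ODC1 and SRM and CCAAT in SRM, are left in small letters. Each is written 5′ to 3′ on the strand of its gene, with matches to 1 motif in capitals: CCAAT or its reverse complement ATTGG in SAT1, CACGTG in ODC1 and SRM, and GGGCGG in AMD1.
SAT1 (chrX:23782923-23783172, plus strand): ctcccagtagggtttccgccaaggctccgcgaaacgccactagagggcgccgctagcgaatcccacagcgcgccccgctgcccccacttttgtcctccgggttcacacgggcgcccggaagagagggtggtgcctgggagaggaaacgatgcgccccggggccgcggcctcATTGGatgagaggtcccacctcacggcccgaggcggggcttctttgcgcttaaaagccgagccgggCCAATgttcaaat
ODC1 (chr2:10447993-10448120, minus strand): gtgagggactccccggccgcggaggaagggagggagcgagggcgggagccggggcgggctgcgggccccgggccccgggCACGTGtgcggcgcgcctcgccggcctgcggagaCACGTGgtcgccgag
AMD1 (chr6:110874535-110874784, plus strand): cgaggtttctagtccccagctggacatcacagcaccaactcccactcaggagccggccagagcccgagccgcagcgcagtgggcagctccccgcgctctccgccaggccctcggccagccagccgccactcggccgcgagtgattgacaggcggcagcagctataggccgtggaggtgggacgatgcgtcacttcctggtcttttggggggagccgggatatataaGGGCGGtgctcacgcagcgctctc
SRM (chr1:11060025-11060268, minus strand): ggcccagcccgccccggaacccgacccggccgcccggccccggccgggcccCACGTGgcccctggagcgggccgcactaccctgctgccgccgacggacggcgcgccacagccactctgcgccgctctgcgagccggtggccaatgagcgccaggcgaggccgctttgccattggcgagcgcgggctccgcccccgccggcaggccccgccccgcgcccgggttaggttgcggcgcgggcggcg

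CACGTG is the E-box read by MYC with MAX, and ODC1 is a textbook MYC target. Of the members whose windows were searched, only ODC1 and SRM held this motif. In ODC1 the matches began at positions -29 and 5 from the inner of its 2 RefSeq starts, within the first intron of the transcript model that starts farthest upstream, whose first exon spans chr2:10448121-10448504. In SRM the single match began at position -199. Searched on both strands, CACGTG occurred in 7.26% of all 35116 promoter windows of this length, CCAAT in 34.6% and GGGCGG in 45%. The SAT1 window held 2 CCAAT matches, at positions -79 and -13, and no match to any other motif searched. TGACNNNGC, the core of the antioxidant response element, occurred in 13.3% of all windows and, among the members searched, in the outer ODC1 window alone. TGANTCA, read by AP-1, occurred in 7.71% of all windows and among the members searched in OAZ2 alone. TGATGNAA, an ATF4 composite motif, occurred in 3.62% of all windows and in no member window searched. No match in a member overlapped a match of another motif, and a match describes letters only. The scaled CPM of MYC were 36.6 in the control, 16.8 with TGF-β, 12.6 with BDS4 and 16.9 with RVX-208. MAX was at 67.4, 58.8, 57.7 and 39.3 CPM in the same order. Binding of either factor at these genes was not measured, and the part of MYC or MAX in the ODC1 levels was not tested.

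Total counts ran from 17022369 (RVX-208) to 22503094 (control), and 3 counts, the limit that a count of 0 allows, were worth 0.126 to 0.178 CPM. Of 11 stellate and myofibroblast markers, 9 reached 1 CPM in at least 1 library, with a summed level of 5318 to 10456 CPM, and DES and LRAT did not. The 5 hepatocyte markers (ALB, APOA1, APOB, TTR and TF) summed to 0.0594 to 0.317 CPM, the 5 endothelial ones to 6.16 to 11.8 CPM and the 5 macrophage ones to 11.6 to 35.0 CPM. The 5 cholangiocyte markers summed to 135 to 557 CPM, with KRT19 and EPCAM below 1 CPM in every library. The BDS4 library stood apart in its RNA: mitochondrial ribosomal RNA made up 0.903% of its counts against 0.212% to 0.248% in the others. All 7 of 7 long non-coding RNAs examined, among them MALAT1 and NEAT1, were called higher with BDS4 than with TGF-β, beside 14.5% of all genes. With RVX-208 against TGF-β, 2 of the 7, MALAT1 and NEAT1, were also called higher, beside 2.94% of all genes. The 13 mitochondrial mRNAs went the other way, summing to 9444 CPM with BDS4 against 13879 to 14975 CPM in the other libraries. Their median log2 ratio to TGF-β was -0.60, and 0 of the 13 were called. Of the 9 stellate markers tested, 6 were called lower and 1 higher with BDS4 than with TGF-β, with a median log2 ratio of -2.55. Of all genes, 17.7% were called lower and 14.5% higher. A gene is called where 2 libraries differ at least 2-fold and the counting interval of their ratio excludes 1. The part of these differences in the values below was not tested. In bulk RNA, a change in the number of cells and a change in RNA per cell cannot be told apart.

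SAT1 (ENSG00000130066, chrX:23783173-23786226) catalyses the acetylation step that commits spermidine and spermine to export or oxidation. Its scaled level was 41.8 CPM in the control, 62.2 CPM with TGF-β, 906 CPM with BDS4 and 116 CPM with RVX-208, from 998, 1373, 18484 and 1953 counts. The BDS4 library lay far above the other 3, and no counting interval of 1 library touched that of another. With TGF-β the level was 1.49-fold that of the control (95% counting interval 1.37 to 1.62), with RVX-208 1.87-fold that of TGF-β (1.74 to 2.001) and with BDS4 14.6-fold that of TGF-β (13.8 to 15.4). Among the 16099 genes SAT1 ranked 107th from the top in the ratio of BDS4 to TGF-β and 623rd in that of RVX-208 to TGF-β. These rankings share the TGF-β library. Against the control, SAT1 rose 21.7-fold with BDS4 (20.3 to 23.1), where it ranked 68th, and 2.78-fold with RVX-208 (2.57 to 3.00).

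**Figure D1:**
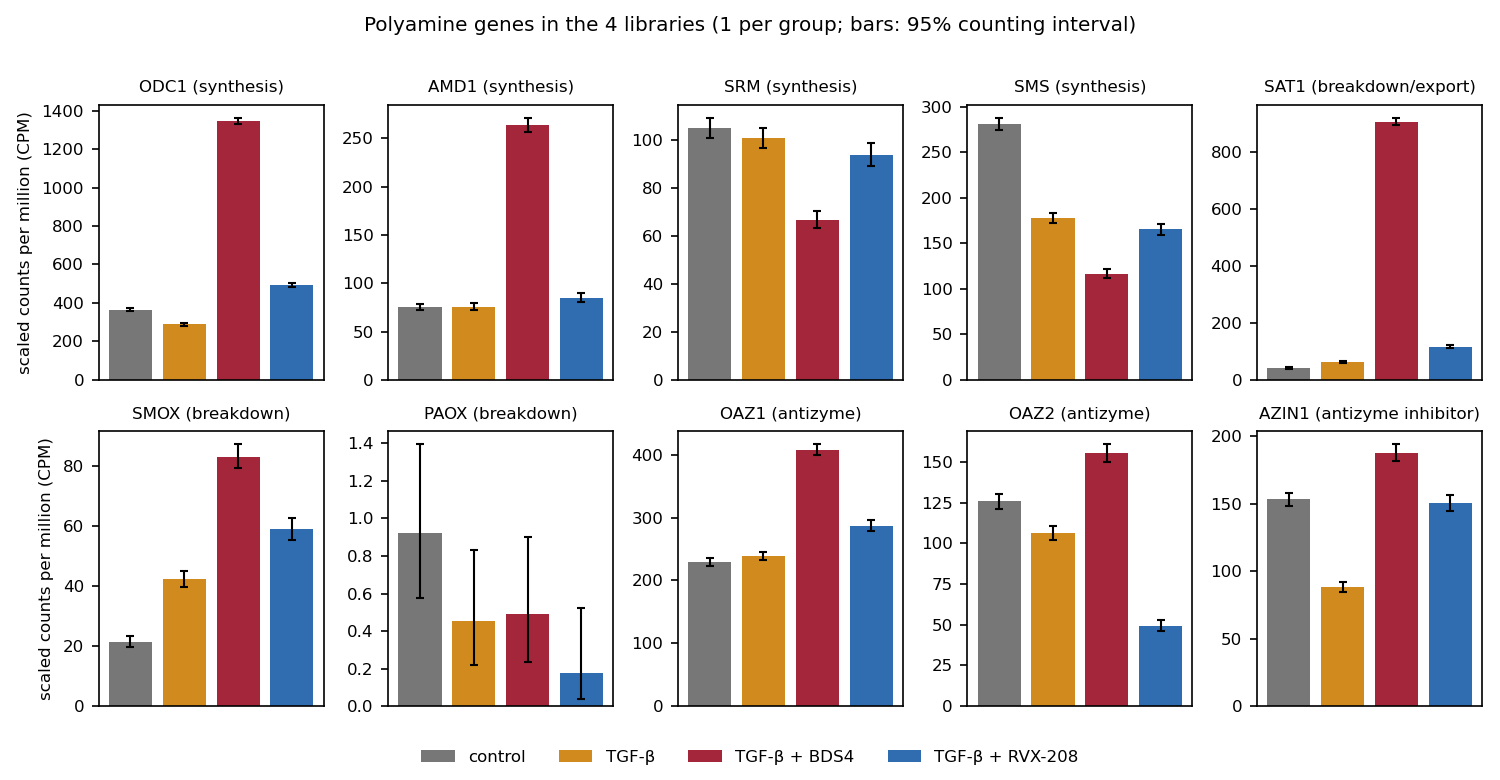
Scaled CPM (y axis, linear, from 0, a different range in each panel) of the 10 polyamine genes in the control, TGF-β, TGF-β + BDS4 and TGF-β + RVX-208 libraries, 1 per group, with 95% exact Poisson intervals as error bars. SAT1 stands at 906 CPM with BDS4 against 41.8 to 116 in the other libraries, and SRM and SMS are lowest with BDS4.

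The 2 oxidases of breakdown had lower FPKM than SAT1 in every library. SMOX (ENSG00000088826, chr20:4120980-4187747) encodes spermine oxidase, which turns spermine back into spermidine and releases hydrogen peroxide. It was at 21.5, 42.3, 83.2 and 58.9 CPM in the control, TGF-β, BDS4 and RVX-208 libraries. All 3 TGF-β-treated libraries lay above the control, with BDS4 highest, the same order of libraries as for SAT1. The SMOX ratio was 1.97 for TGF-β against the control (1.77 to 2.20) and again 1.97 for BDS4 against TGF-β (1.81 to 2.13), each just under the 2-fold rule. Against the control, SMOX rose 3.87-fold with BDS4 (3.51 to 4.28) and 2.74-fold with RVX-208 (2.46 to 3.06). PAOX (ENSG00000148832, chr10:133379234-133391694), the peroxisomal oxidase of acetylated polyamines, had 22, 10, 10 and 3 counts in the 4 libraries. All its adjacent libraries had ratios whose intervals included 1. RVX-208 and the control, the extreme pair, were separated beyond counting error, with a ratio of 0.193, or 5.17-fold lower (1.55 to 27.0). PAOX is uncertain also because it shares 158 exon bases, 6.94% of its exons, with an unnamed gene on the same strand that had 66 to 133 counts.

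ODC1 (ENSG00000115758, chr2:10439968-10448504), the first and rate-limiting enzyme of synthesis, had the most counts of the 10 genes in every library, a scale not corrected for length. Its level was 363 CPM in the control, 289 CPM with TGF-β, 1346 CPM with BDS4 and 493 CPM with RVX-208, from 8675, 6371, 27445 and 8294 counts. TGF-β gave the lowest level and both compound libraries exceeded the control. The ratio was 0.794 for TGF-β against the control (0.769 to 0.821), 4.66 for BDS4 against TGF-β (4.54 to 4.79) and 1.71 for RVX-208 against TGF-β (1.65 to 1.76). ODC1 ranked 533rd of the 16099 genes in the BDS4 ratio and 813th in the RVX-208 ratio.

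AMD1 (ENSG00000123505, chr6:110874770-110895713) decarboxylates S-adenosylmethionine and is, like ODC1, a short-lived enzyme at which synthesis is controlled. It was at 75.4 CPM in the control, 75.4 CPM with TGF-β, 264 CPM with BDS4 and 85.0 CPM with RVX-208. Control and TGF-β did not differ beyond counting error (interval of the ratio 0.935 to 1.07), RVX-208 was slightly above them, and BDS4 stood alone at the top. The ratio to TGF-β was 3.50 with BDS4 (3.31 to 3.70, rank 818) and 1.13 with RVX-208 (1.05 to 1.21).

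The aminopropyl transferases had the reverse of the order of libraries seen for SAT1, highest in the control and lowest with BDS4. SRM (ENSG00000116649, chr1:11054584-11060024), spermidine synthase, was at 105 CPM in the control, 101 CPM with TGF-β, 66.6 CPM with BDS4 and 93.7 CPM with RVX-208. SMS (ENSG00000102172, chrX:21940573-21994835), spermine synthase, was at 281, 177, 116 and 165 CPM in the same order. For SRM the control and TGF-β libraries were not separated beyond counting error, while for SMS the control was clearly highest. Against TGF-β, the BDS4 ratio was 0.662 for SRM (1.51-fold lower, 1.41 to 1.62) and 0.657 for SMS (1.52-fold lower, 1.45 to 1.60), neither past 2-fold. With BDS4 against the control, SMS alone among the members was called lower, 2.41-fold (2.30 to 2.53). With TGF-β alone it was 1.58-fold below the control (1.52 to 1.65) and with RVX-208 1.70-fold below it.

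**Figure D2:**
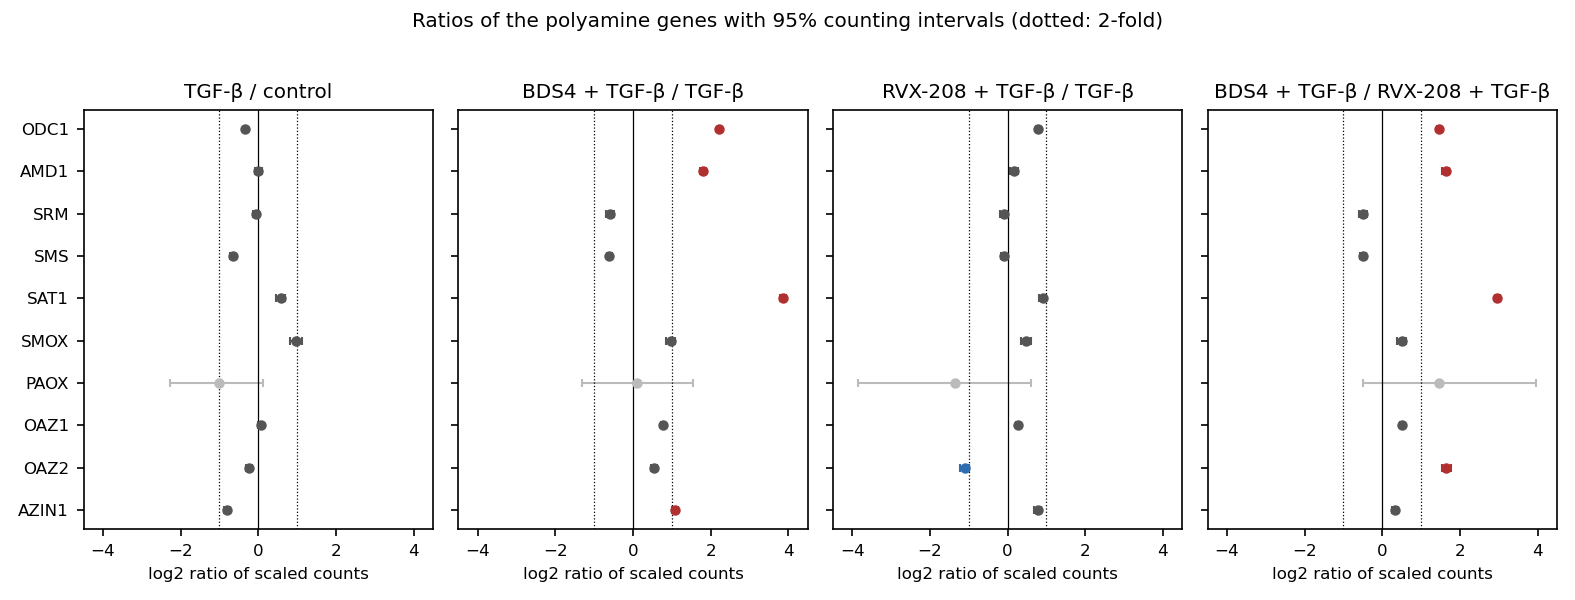
Log2 ratio of scaled counts (x axis) for the 10 polyamine genes (y axis) in 4 comparisons of 1 library with another, with 95% counting intervals. Red and blue mark genes called at least 2-fold higher and lower, dark grey those not called, light grey PAOX, which was below the level filter, and dotted lines 2-fold. SAT1, ODC1, AMD1 and AZIN1 are red for BDS4 against TGF-β, OAZ2 alone is blue for RVX-208, and none is coloured for TGF-β against the control.

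Antizyme mRNAs code for proteins made only when ribosomes shift reading frame, a step that polyamines favour. OAZ1 (ENSG00000104904, chr19:2269509-2273490), the most widely expressed antizyme, was at 229, 238, 407 and 287 CPM in the control, TGF-β, BDS4 and RVX-208 libraries. OAZ2 (ENSG00000180304, chr15:64687573-64703281), its less abundant relative, was at 126 CPM in the control, 106 CPM with TGF-β, 155 CPM with BDS4 and 49.5 CPM with RVX-208. Both were highest with BDS4, but with RVX-208 OAZ1 was second highest and OAZ2 lowest. OAZ2 fell 2.14-fold with RVX-208 against TGF-β (1.98 to 2.32), 691st from the bottom of the 16099 genes, and 2.54-fold against the control (2.35 to 2.75). With BDS4 its ratio to TGF-β was 1.46 (1.39 to 1.54), and BDS4 was 3.14-fold above RVX-208 (2.91 to 3.39). OAZ1 had a ratio to TGF-β of 1.71 with BDS4 (1.65 to 1.77) and 1.20 with RVX-208. Its ratio of TGF-β to control was 1.04 and dropped below 1 (log2 -0.01) when libraries were scaled by total counts alone.

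AZIN1 (ENSG00000155096, chr8:102826357-102893864) resembles ODC1 without its activity and frees ODC1 by binding antizyme. It was at 153 CPM in the control, 88.1 CPM with TGF-β, 188 CPM with BDS4 and 151 CPM with RVX-208. The TGF-β library was lowest, and control and RVX-208 were not separated beyond counting error (ratio 0.984, 0.935 to 1.03). AZIN1 was 1.74-fold lower with TGF-β than in the control (1.64 to 1.84), the largest such difference below the control among the 9 members. Against TGF-β the ratio was 2.13 with BDS4 (2.02 to 2.25) and 1.71 with RVX-208 (1.61 to 1.81). The BDS4 call was lost under scaling by total counts and in the deposited FPKM, where the log2 ratio was 0.99.

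Some exon bases of the antizyme group overlap other genes, and how many reads they share was not measured. OAZ1 shares 220 exon bases (6.40%) with an unnamed gene of 0 to 6 counts and lies opposite JSRP1 (0 to 48 counts) over 236 bases, OAZ2 lies opposite an unnamed gene of at most 9 counts, and AZIN1 opposite MAILR with 10 to 22 counts. Pseudogenes and divergent transcripts named after members made up 12 genes of at most 9 counts each. A strand setting for the counting is not given in the sources used.

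By comparison, TGF-β against the control called 0 of the 9 members tested at 2-fold, where 9.68% of all 16099 genes were called, 5.32% higher and 4.37% lower. Log2 ratios of the members lay between -0.80 (AZIN1) and 0.97 (SMOX), 4 above 0 and 5 below, with a median of -0.06 beside -0.01 over all genes. SAT1 and SMOX, both on the breakdown side, had the highest ratios, and AZIN1 and SMS the lowest.

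With BDS4 against TGF-β, the comparison that chose the pathway, 4 of 9 members were called higher (SAT1, ODC1, AMD1 and AZIN1) and 0 lower, beside 32.2% of all genes called in either direction, 14.5% higher and 17.7% lower. Log2 ratios of the members ran from -0.61 (SMS) to 3.86 (SAT1), with a median of 0.97 beside -0.01 over all genes. The genes called higher included the enzymes that start synthesis (ODC1, AMD1) and the acetyltransferase that starts breakdown (SAT1), while SRM and SMS, which lie between them, were below 1.

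With RVX-208 against TGF-β, 0 members were called higher and 1 lower (OAZ2), beside 8.19% of all genes called, 2.94% higher and 5.25% lower. The members' median log2 ratio was 0.27 beside -0.00076 over all genes, and the highest were SAT1 at 0.90 and ODC1 and AZIN1 at 1.71-fold each. This comparison and both others above share the TGF-β library, whose low AZIN1 and ODC1 levels enter each of them.

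**Figure D3:**
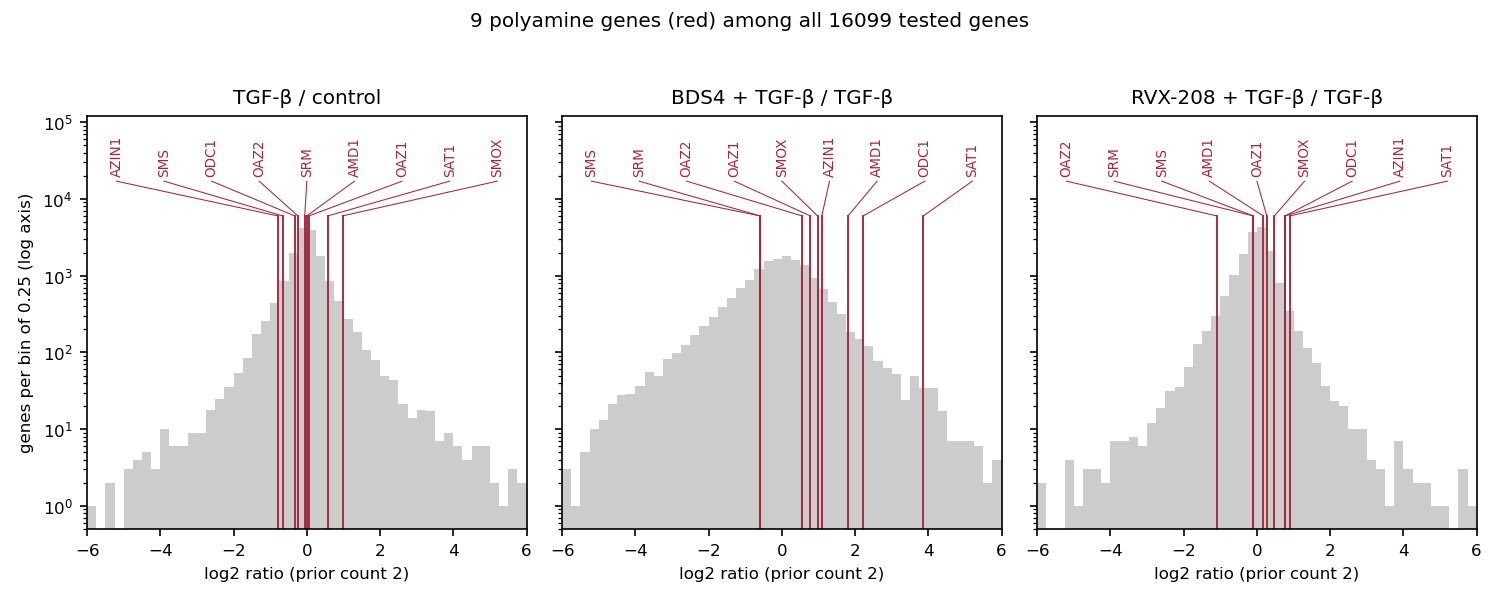
Number of genes per bin of 0.25 in log2 ratio (grey, y axis, log scale) for 3 comparisons of 1 library with another, prior count 2, shown between -6 and 6, with the 9 tested polyamine genes as red lines. The grey distribution is widest for BDS4, where SAT1 lies at 3.86, and in the other comparisons the members lie between -1.10 (OAZ2 with RVX-208) and 0.97 (SMOX with TGF-β).

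BDS4 and RVX-208 were given at the same dose and for the same time, which allows their libraries to be set side by side. The BDS4 library had 4 of 9 members called higher than the RVX-208 library (SAT1, ODC1, AMD1 and OAZ2) and 0 lower, beside 24.8% of all genes called, 11.7% higher and 13.1% lower. The ratio was 7.81 for SAT1 (7.46 to 8.19), 2.73 for ODC1 (2.67 to 2.80) and 3.11 for AMD1 (2.93 to 3.29). SRM and SMS were 0.710 and 0.704 of their RVX-208 level, and OAZ1, SMOX and AZIN1 lay at 1.42, 1.41 and 1.25. This comparison uses the BDS4 library that chose the pathway. With 1 library each, a difference between the compounds and a difference between cultures cannot be told apart.

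Set against the untreated control, BDS4 had 4 members called higher (SAT1, ODC1, AMD1 and SMOX) and 1 lower (SMS), beside 33.1% of all genes called, 14.9% higher and 18.2% lower. RVX-208 had 2 higher (SAT1 and SMOX) and 1 lower (OAZ2), beside 12.3% of all genes called, 5.39% higher and 6.88% lower. ODC1 was 3.70-fold the control with BDS4 (3.62 to 3.80) and 1.36-fold with RVX-208, and AZIN1 was at 1.23 and 0.984. The median log2 ratio of the members was 0.83 with BDS4 and 0.17 with RVX-208, beside -0.0082 and -0.00038 over all genes. The BDS4 values here come from the library whose SAT1 level chose the pathway. Scaling by total counts alone shifted the median log2 ratio of all genes by -0.17 with BDS4 and -0.10 with RVX-208 and kept all the member calls in them. It also turned the split of all genes called with BDS4 from 2400 higher and 2932 lower to 1877 and 3546.

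Levels of different genes were compared on the deposited FPKM, which are per length. SMS had the highest FPKM of the 10 genes in the control (109) and with TGF-β (65.6), followed by ODC1 (67.9 and 51.3). With BDS4 ODC1 came first (224) and SAT1 second (182), ahead of SMS (40.3) and OAZ1 (39.5). With RVX-208 ODC1 (85.8) and SMS (59.9) led, and SAT1 was at 24.4. The FPKM of all 10 genes summed to 270.2, 209.7, 549.9 and 252.4 in the control, TGF-β, BDS4 and RVX-208 libraries. SAT1 made up 3.49%, 6.37%, 33.1% and 9.67% of that sum, and SMS 40.4%, 31.3%, 7.32% and 23.7%. SMS thus had the largest share in the control, and with BDS4 ODC1 and SAT1 had larger shares than SMS.

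**Figure D4:**
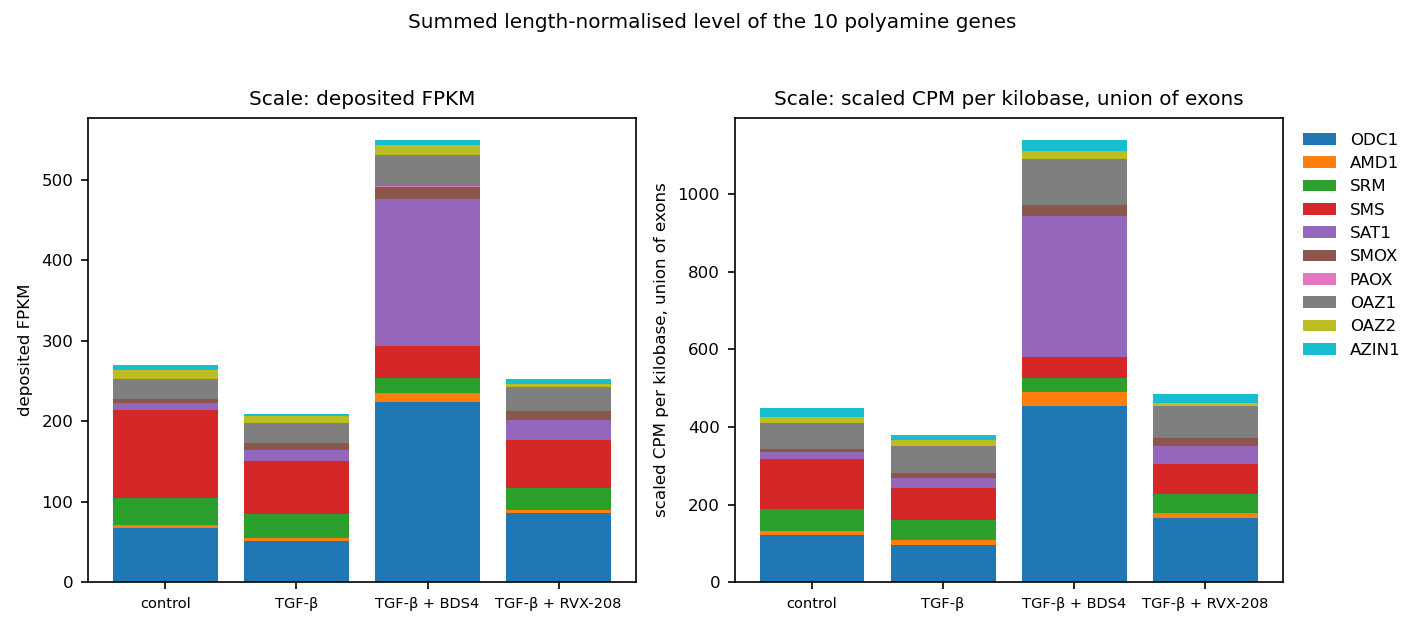
Level of the 10 polyamine genes stacked for each library (x axis), as deposited FPKM (left y axis) and as scaled CPM per kilobase of the union of GENCODE 29 exons (right y axis), 1 library per group. On the left the sums are 270.2, 209.7, 549.9 and 252.4, and on either scale ODC1 and SAT1 fill most of the BDS4 bar.

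Ratios within a library show the balance of the branches on the FPKM scale. SAT1 stood at 0.139 of ODC1 in the control, 0.260 with TGF-β, 0.813 with BDS4 and 0.284 with RVX-208. The breakdown sum (SAT1, SMOX and PAOX) was 0.0665, 0.146, 0.672 and 0.204 of the synthesis sum (ODC1, AMD1, SRM and SMS). Breakdown RNA was thus highest relative to synthesis RNA with BDS4 and lowest in the control. SAT1, whose BDS4 level chose the pathway, made up 182 of the 198 FPKM of the breakdown sum with BDS4. The BDS4 values of this ratio and of SAT1 to ODC1 therefore carry that choice and are a description. The antizyme sum was 0.525 of ODC1 in the control, 0.649 with TGF-β, 0.229 with BDS4 and 0.386 with RVX-208, highest with TGF-β and lowest with BDS4. AZIN1 was 0.179, 0.105, 0.136 and 0.176 of the antizyme sum, lowest with TGF-β. SMS was 3.29 times SRM in the control and 2.15 to 2.16 times in each TGF-β-treated library, so the proportion of these 2 enzymes differed between control and TGF-β and hardly among the TGF-β-treated libraries.

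The gene order depends on the length behind the FPKM. The length implied by FPKM and counts was the same in every library for a gene but was 1.26 (SMS) to 3.97 (AZIN1) times the union of its GENCODE 29 exons. On the union length ODC1 passed SMS with TGF-β (97.2 against 82.1 CPM per kilobase), and on the longest transcript SAT1 passed ODC1 with BDS4 (ratio 1.57). On the longest transcript the breakdown sum was 0.120, 0.244, 1.23 and 0.347 of the synthesis sum in the control, TGF-β, BDS4 and RVX-208 libraries, above it with BDS4, and the antizyme sum with RVX-208 was 0.583 of ODC1. The order of the libraries for a gene, or for the ratio of SAT1 to ODC1, does not depend on this length.

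Genes around the pathway were described from 4 lists. Their calls stand beside 14.5% of all genes higher and 17.7% lower with BDS4 against TGF-β. The shares were 2.94% and 5.25% with RVX-208 against TGF-β, and 5.32% and 4.37% with TGF-β against the control. Of 9 relatives of the members (among them SAT2, OAZ3, AZIN2 and the hypusine pathway, which uses spermidine to modify EIF5A), 7 were tested. With BDS4 against TGF-β, 1 was called higher, EIF5A2, a second form of that translation factor, from 15.04 to 54.5 CPM (3.63-fold, 3.21 to 4.11), and 0 lower. The list had 0 calls with RVX-208 and 0 with TGF-β against the control. Medians of its log2 ratios were -0.27 for TGF-β, -0.07 for BDS4 and 0.25 for RVX-208. EIF5A itself was counted at only 3.92 to 4.98 CPM and has near-identical copies in the genome, so its value is uncertain. AZIN2, a brain- and testis-enriched antizyme inhibitor, was at 6.45, 10.6, 15.5 and 9.92 CPM in the control, TGF-β, BDS4 and RVX-208 libraries.

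Ornithine and arginine supply, which feeds ODC1, had 10 of 13 genes tested. BDS4 against TGF-β called 2 higher and 1 lower. OAT, which interconverts ornithine and glutamate semialdehyde, rose from 123 to 290 CPM (2.36-fold, 2.26 to 2.47), and GATM, which uses arginine to make the creatine precursor and releases ornithine, from 3.67 to 20.4 CPM (5.56-fold, 4.37 to 7.15). PYCR1, of proline synthesis, fell from 57.8 to 23.1 CPM (2.50-fold, 2.25 to 2.79). RVX-208 called GATM alone, 2.56-fold higher (1.95 to 3.39), and TGF-β against the control called 0. ARG1, the liver arginase, was below 1 CPM, and ARG2, the mitochondrial form that yields ornithine, was at 24.5, 21.4, 40.2 and 24.8 CPM. List medians were -0.20 for TGF-β, 0.30 for BDS4 and 0.01 for RVX-208.

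The methionine cycle and the salvage of methylthioadenosine, the by-product of SRM and SMS, had 10 of 11 genes tested. BDS4 called 1 higher, ADI1 of the salvage route (2.05-fold, 1.88 to 2.24), and 0 lower, and both RVX-208 and TGF-β called 0. MAT2A, which makes S-adenosylmethionine, was at 434, 423, 683 and 455 CPM (BDS4 ratio 1.61), AHCY, which clears S-adenosylhomocysteine, had a BDS4 ratio of 1.83, and APIP of the salvage route one of 0.524. MTAP, the first salvage enzyme, which is deleted in many tumour lines, was present at 26.8 to 39.7 CPM. Medians were -0.16, 0.33 and 0.17.

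Transport of polyamines and cationic amino acids had 8 of 12 genes tested and the most calls of the 4 lists with BDS4, 2 higher and 3 lower. SLC3A2, the heavy chain of amino acid exchangers that is also linked to polyamine export, rose from 251 to 659 CPM (2.63-fold, 2.55 to 2.71), and SLC7A2, a carrier of arginine and ornithine, from 3.62 to 25.3 CPM (6.97-fold, 5.50 to 8.94). SLC12A8 fell 4.62-fold (3.04 to 7.26), and ATP13A2, the lysosomal polyamine exporter, and SLC18B1, a vesicular polyamine transporter, fell 2.09-fold and 2.08-fold. RVX-208 called SLC7A2 higher (2.51-fold, 1.90 to 3.33) and GPC1, a heparan sulfate proteoglycan linked to polyamine uptake, lower, from 176 to 70.6 CPM (2.49-fold, 2.34 to 2.66). TGF-β against the control called SLC7A2 alone, lower (7.54 to 3.62 CPM), and 0 higher. Medians were -0.13 for TGF-β, -0.34 for BDS4 and -0.27 for RVX-208. Over all 4 lists, 10 of 35 genes were called with BDS4 against TGF-β, beside 32.2% of all genes. With RVX-208 3 of the 35 were called, beside 8.19% of all genes, and with TGF-β against the control 1, beside 9.68%.

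**Figure D5:**
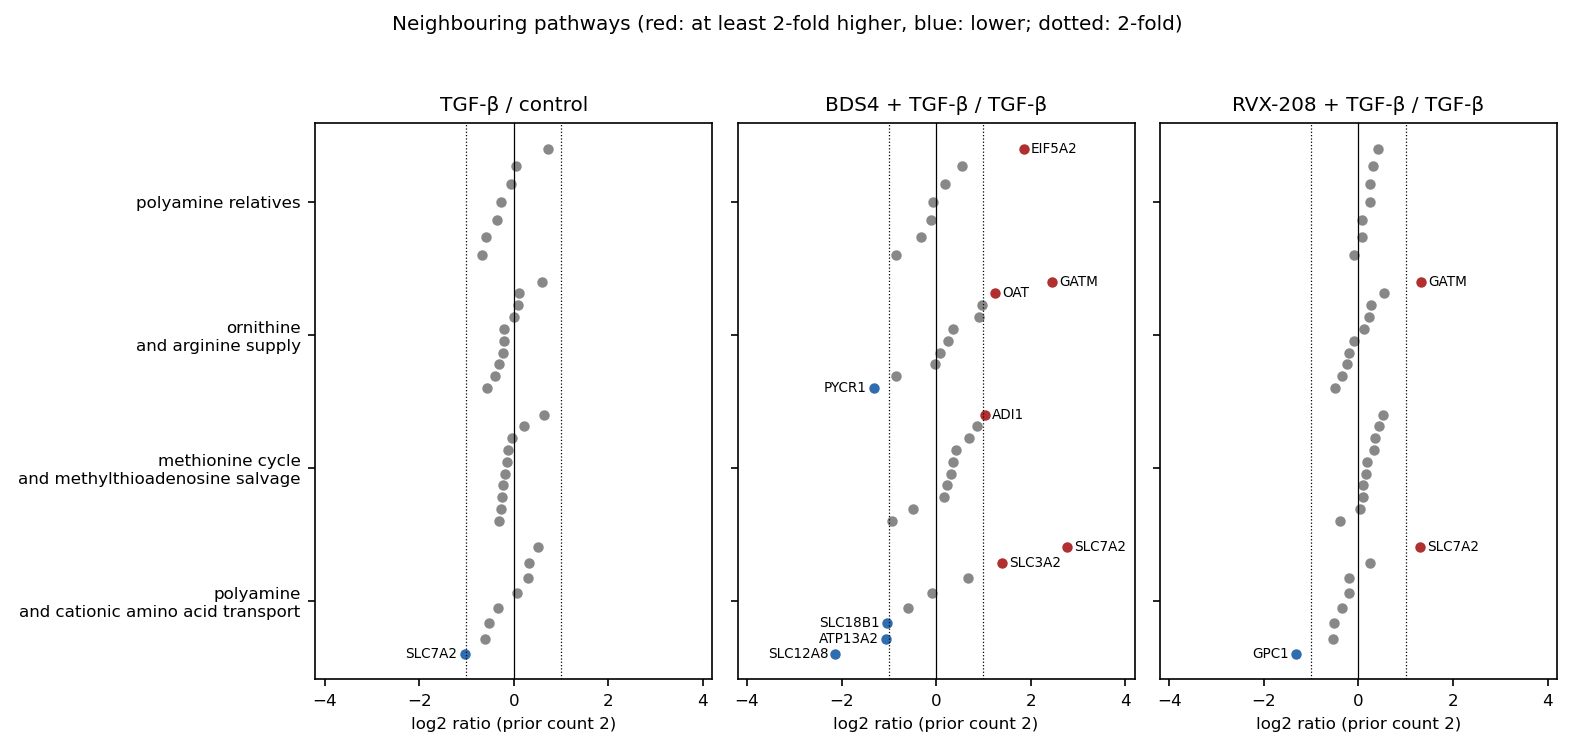
Log2 ratio (x axis, prior count 2) of each tested gene of 4 lists around the pathway (y axis, genes sorted within a list) in 3 comparisons of 1 library with another. Red and blue dots mark genes at least 2-fold higher or lower, grey dots the rest and dotted lines 2-fold. Of 35 genes, 10 are coloured for BDS4, 3 for RVX-208 and 1 for TGF-β, beside 32.2%, 8.19% and 9.68% of all genes called.

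Among genes named as regulators, HEXIM1, whose rise is a common mark of BET inhibition, was at 152 CPM in the control, 166 with TGF-β, 622 with BDS4 and 252 with RVX-208, highest with BDS4 and second highest with RVX-208. The members SAT1, ODC1, AMD1, OAZ1 and SMOX also had these libraries first and second, and OAZ2, AZIN1, SRM, SMS and PAOX did not. The share of all genes with these libraries first and second was not counted, and SAT1 chose the pathway by its BDS4 level. A part of BET inhibition in these orders was not tested. NFE2L2, the oxidant-response factor that can act on SAT1, was at 24.3, 16.98, 25.2 and 22.3 CPM and was not called in any comparison with TGF-β.

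The genes most like SAT1 and ODC1 over the 4 libraries were listed by the distance between log2 CPM profiles centred on their means, among 10381 protein-coding genes that reached 10 CPM in some library. Nearest to SAT1 was ANKRD1, a muscle stress protein and YAP target, at 50.2, 77.1, 946 and 139 CPM (distance 0.193), followed by ITPR1, TMEM47, DLL4 and TENT5C at 0.355 to 0.418. TMEM47, DLL4 and TENT5C reached 10 CPM in the BDS4 library alone, the library whose SAT1 level chose the pathway. Nearest to ODC1 was FKBP5, a glucocorticoid-induced cochaperone, at 119, 90.8, 424 and 145 CPM (distance 0.111), followed by BAIAP2, GADD45A, GLRX and EFNB1 at 0.129 to 0.149. AMD1 was the member closest to ODC1 (distance 0.43, place 125), and ODC1 the member closest to SAT1 (1.83, place 207). Among the members SMS was farthest from both, at 2.46 from ODC1 and 4.25 from SAT1. A distance over 4 libraries is a description, and genes with 1 high library resemble each other on it.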

How the data were processed

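RNA from 4 LX-2 libraries, 1 per group, was sequenced from a stranded paired-end mRNA kit. The deposited gene counts are raw whole numbers. Base calling with CASAVA 1.8 and alignment to GRCh38 with TopHat2 2.0.6 are named in the submitters' processing notes. The deposited FPKM values were made by the authors with StringTie 1.3.0, per the series' design text. Neither the program that counted reads, nor its annotation release, nor its strand setting is given in the sources used here. Columns were matched to groups through the sample descriptions, and that of the BDS4 library rests on its description alone.

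Counts were scaled by TMM (edgeR 4.0.16, R 4.3.3; factors 1.06, 1.01, 0.943 and 0.989 for control, TGF-β, BDS4 and RVX-208) over the 16113 genes that reached 1 unscaled CPM in any library. The 16099 genes tested are those that reached 1 scaled CPM in any library. Ratios of 1 library to another carry 95% conditional exact (Clopper-Pearson) intervals and levels exact Poisson intervals, which reflect counting error alone. Calls required a difference of 2-fold or more, higher or lower, with an interval that left out 1, a rule of size and not a test. Log2 ratios for medians, ranks and plots used a prior count of 2. The calling script was tested on simulated data. Gene positions and lengths came from GENCODE 29 (GRCh38). FPKM divided by counts gave 1 length per gene (spread up to 0.000417% in 8985 genes). That length equalled the sum of all distinct GENCODE 29 exons, within 0.5 bases, in 5.39% of them, so its definition is uncertain. Python 3.11.15, numpy 2.4.6, scipy 1.17.1, pandas 2.3.3 and matplotlib 3.10.9 were used.

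All 10 members are named. Of each list around them, counts of calls, medians and members with the largest ratios are given. SLC18B1, ARG2 and ATP13A2 with BDS4 were added after their values were seen. A few genes of the lists are not reported here. The members and lists were chosen with earlier results of these data known. Alternatives were DESeq2 1.42.0 size factors, total-count scaling, no filter, at least 5 CPM, summing genes that share exon bases, ratios of FPKM and, chosen after seeing the data, 2 other gene lengths.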

Additional observations from a re-analysis of the deposited data

How the results depend on the processing

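The 54 ratios of the 9 tested members over 6 comparisons kept direction and call with DESeq2 size factors, with a filter of at least 5 CPM, without a filter and with genes sharing exon bases summed. Under total-count scaling and in ratios of deposited FPKM, 1 call was lost each, AZIN1 with BDS4 against TGF-β (log2 0.99), and of the ratios not called 18 each moved beyond their counting interval. Ratios that kept their call, SAT1 with BDS4 among them, could also leave their interval. A filter of at least 5 CPM lowered the number of genes called to 863 from 1559 for TGF-β against the control, to 658 from 1318 for RVX-208 against TGF-β and to 1102 from 1976 for RVX-208 against the control, with fewer genes tested. Under total-count scaling 11 list genes were called with BDS4 against the control, 4 higher and 7 lower, and with DESeq2 size factors 12, 8 higher and 4 lower, against 10, 6 higher and 4 lower. With lengths from the union of exons or from the longest transcript, chosen after seeing the data, 13 of 40 levels kept the rank they had by FPKM. Within a library, these rankings differ only in the gene length used. No paired analysis was possible because each group is 1 library, and for the same reason no library could be left out.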
